A study of Homo sapiens with 4 samples.

Results

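The replication-dependent core histone genes encode the H2A, H2B, H3 and H4 proteins that package newly made DNA into nucleosomes. They were described here as all genes whose symbol begins with H2AC, H2BC, H3C or H4C followed by a number (older names of the kind HIST1H2AC), without linker histones. The table of normalized values held 72 probes for 63 such genes, among 43893 probes with values for 19778 named genes. There were 17 H2A, 18 H2B, 13 H3 and 15 H4 genes. A probe was tested if its detection p-value was under 0.01 on at least 2 of the 4 arrays, which 30 of the 72 probes did, for 27 of the 63 genes.

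RNA of DU154, as the labels spell the name of this line from prostate cancer, was measured on 4 Illumina bead arrays. Of these, 2 were of cells depleted of mH2A1.2 (group mH2A1.2_KO) and 2 of wild type cells of that line. mH2A1.2 is 1 of the splice forms of macroH2A1, a variant of H2A. The sources used here give neither the way of depletion nor whether the cells are 1 clone, and the labels name no treatment. The labels number no replicates, so the numbers used here follow the order of the samples and only name an array. Since the labels name no separate cultures, p-values rest on the spread of the arrays alone, and that spread may be technical.

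Histone genes of this kind lie in clusters, often as neighbouring H2A and H2B genes transcribed away from each other. They are transcribed in S phase, when the factor NPAT is phosphorylated by the cyclin E and CDK2 kinase. Their messages end in a stem-loop bound by SLBP rather than in a poly(A) tail, and some members, among them H2AC6, H2BC4, H2BC5, H2BC12 and H2BC21, are known to make polyadenylated transcripts too. The arrays were hybridised with biotinylated cRNA. Such labelling commonly starts from a poly(A) tail, but the labels do not give the priming used, and how far each probe reads messages of either end was not tested.

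The 2 deposited tables name 2 of the arrays differently. The array that the header of the raw table gives to wild type replicate 2 followed the normalized column of mH2A1.2_KO replicate 1, and the reverse, with correlations of at least 0.997 for the matching columns over 8096 bright probes, each centred on its mean over the arrays, against at most 0.0235 for any other pairing. Groups here follow the normalized table, whose columns are named by sample. Both tables place mH2A1.2_KO replicate 2 and wild type replicate 1 alike, and the difference between these is given too. By the raw table's header the sign of the difference turned for 25 of the 27 tested histone genes. MACROH2A1, the gene of the depleted variant, measured 11.97 and 11.83 on the log2 scale in mH2A1.2_KO and 13.02 and 12.91 in wild type on its brightest probe, a difference of -1.07 ± 0.16 (SE, n = 2 arrays per group, limma adjusted p = 0.246). Of its other detected probes 1 differed by -1.02 and 1 by 0.62. Grouped by the raw header, its brightest probe gave -0.12.

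On the arrays 37.3% and 37.3% of probes with values were detected in mH2A1.2_KO, and 40.2% and 36.8% in wild type. The 5 markers of simple epithelia (KRT8, KRT18, KRT19, EPCAM and CDH1) were all tested. All had a higher mean in mH2A1.2_KO, where 48% of all features, described below, did. KRT18 overlapped between the groups, with 8.67 and 8.27 in mH2A1.2_KO and 7.58 and 8.35 in wild type. The summed level of the 5 was 13.56 and 13.41 on the log2 scale in mH2A1.2_KO and 12.40 and 12.40 in wild type. The part of these markers in the histone result was not tested. The luminal prostate markers KLK3 and KLK2, the leukocyte markers PTPRC and CD3E and the endothelial markers PECAM1, CDH5 and VWF were not detected on any array, nor were the basal markers KRT5 and KRT14 and the fibroblast markers PDGFRB and DCN. TMPRSS2, a luminal marker, and COL1A2, a fibroblast marker, were detected on 1 array each. COL1A1, a fibroblast marker, was detected on 2 arrays and measured 6.77 and 6.39 in mH2A1.2_KO against 6.69 and 6.57 in wild type. CD14 was tested and measured 8.69 and 8.27 in mH2A1.2_KO against 8.76 and 7.64 in wild type.

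Most of the tested core histone genes measured higher in mH2A1.2_KO, and none passed the test. Of 27 genes 24 were higher and 3 lower, with a median log2 difference of 0.59, where 48% of all 13786 features (1 probe per gene, the brightest, and unnamed probes) were above 0 and their median was -0.01. The 2 mH2A1.2_KO arrays lay above both wild type arrays for 19 genes and below both for 1, where the background was 17.1% of features higher and 18.7% lower. A difference of at least 2-fold was measured for 6 genes, all higher, where 0.58% of features were. An unadjusted p under 0.05 was given to 12 genes, all higher, where 4.44% of features had one in that direction and 3.37% in the other.

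limma called 0 of 16950 detected probes (0%) at an adjusted p under 0.05, and 1282 or 7.56% had an unadjusted p under 0.05. The lowest adjusted p of a core histone probe was 0.263, for H2AC20. With 2 arrays per group an exact permutation test of a single gene, two-sided, cannot give a p below 0.333. In these bulk samples a change in the number of cells of a type, such as those in S phase, and a change in RNA per cell cannot be told apart.

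The detection filter itself bears on these counts, since 4 of the genes passed it through the mH2A1.2_KO arrays and 1 through the wild type arrays. The median of 0.59 over the 27 genes is the value of H2BC6, among those 4. Among the 21 genes detected on all 4 arrays, 19 were higher and 2 lower, with a median of 0.66, and 15 lay wholly above wild type, where 17.3% of such features did. An unadjusted p under 0.05 was given to 11 of them, all higher, where 4.64% of such features had one in that direction. Over all 72 probes without the filter, 54 measured above 0 with a median of 0.12, where 49.2% of all probes did.

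The array labelled mH2A1.2_KO replicate 1 was the highest of the 4 for 24 of the 27 genes, where it was highest for 21.2% of features. The median of the 27 genes was 8.19 and 7.70 in mH2A1.2_KO and 7.66 and 7.30 in wild type, so mH2A1.2_KO replicate 2 lay close to wild type replicate 1. Between those 2 arrays 19 of 27 genes were higher in mH2A1.2_KO, where 51.1% of features were, with a median of 0.26. Without mH2A1.2_KO replicate 1 the median difference fell to 0.29, with 23 genes higher, where 49.4% of detected probes were. Without wild type replicate 2 the median was 0.43, with 22 genes higher and 5 lower. The count of 0 called genes became 3 without wild type replicate 2 and 2 without wild type replicate 1, where 211 and 69 of all 16950 probes passed. With 1 array left in a group, that array is assumed to vary like those of the other group.

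**Figure D1:**
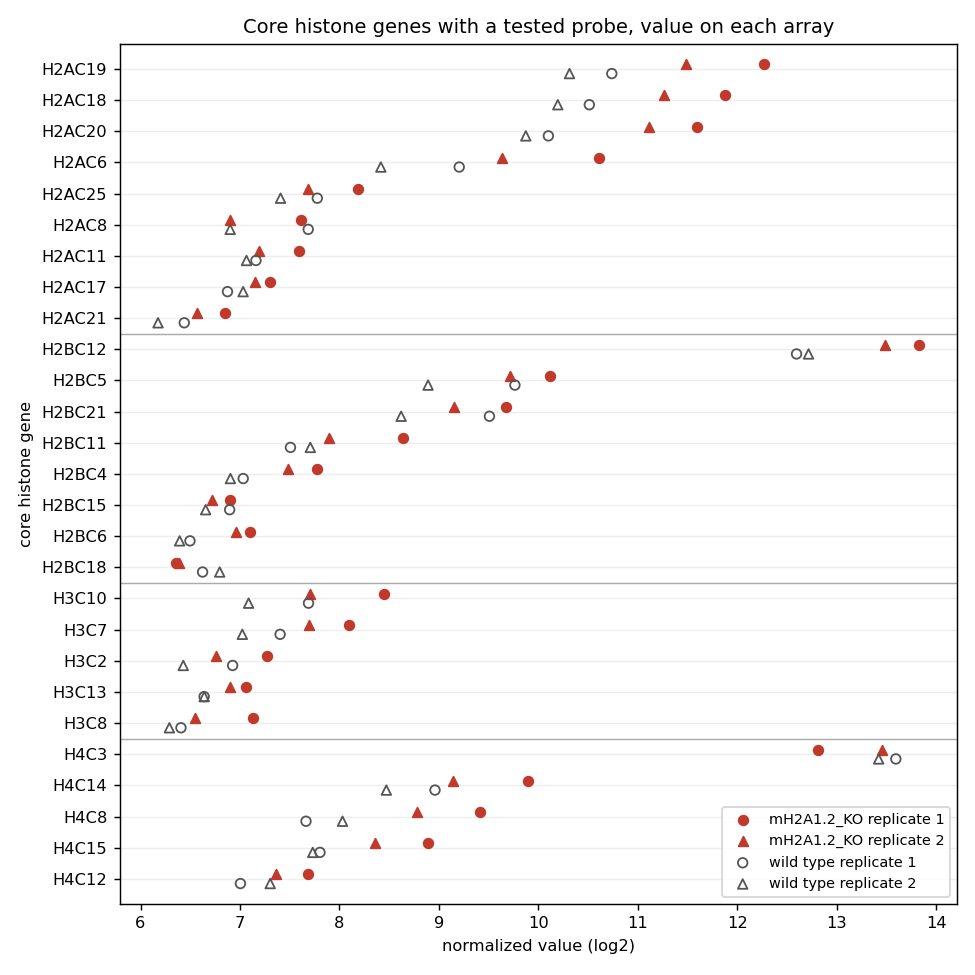
Normalized log2 value (horizontal axis) of the brightest tested probe of each of 27 core histone genes on the 4 arrays, in classes from H2A at the top to H4 at the bottom. Filled symbols are mH2A1.2_KO arrays and open symbols wild type arrays, circles for replicate 1 and triangles for replicate 2. The filled circle is the rightmost symbol for 24 genes.

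**Figure D2:**
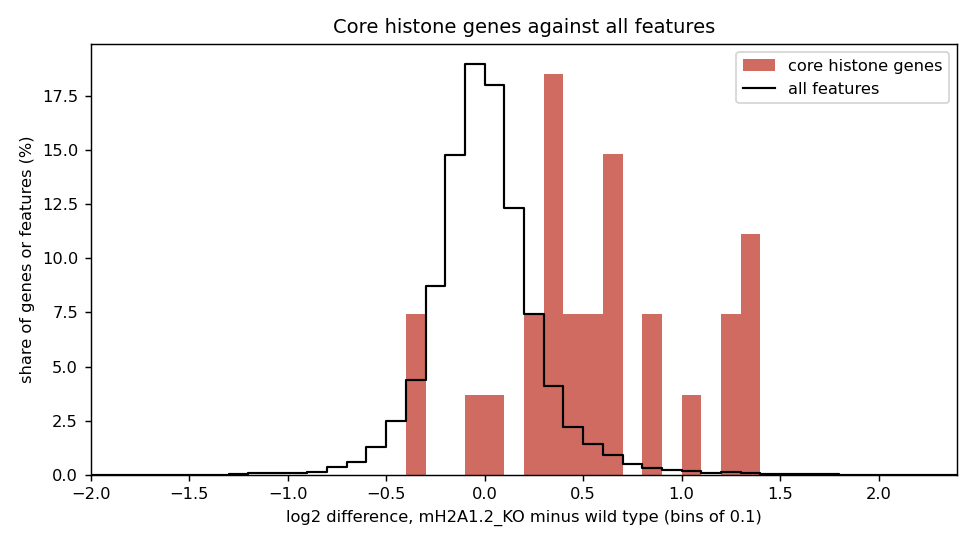
Share (vertical axis, percent) of the 27 tested core histone genes (bars) and of all 13786 features (line) by log2 difference, mH2A1.2_KO minus wild type, in bins of 0.1. The bars lie mostly right of 0, around their median of 0.59, and the line is centred near 0.

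The promoters of these genes share short elements that the choice of genes did not use. RefSeq promoter windows (GRCh38.p14) matched 58 of the 63 genes, and not H2AC12, H3C11, H3C12, H4C1 and H4C3. The 250 bases before the start were searched on both strands for the octamer bound by OCT factors (ATTTGCAT, reverse ATGCAAAT), the TATA box (TATAAA, reverse TTTATA) and the CCAAT box (CCAAT, reverse ATTGG). Matches on opposite strands may overlap. The octamer stood in 11 of 16 H2A windows, 14 of 18 H2B windows, 1 of 11 H3 windows and 0 of 13 H4 windows, against 1.63% of all 35116 promoters. CCAAT stood in every H2A, H2B and H3 window and in 3 of 13 H4 windows, against 32% of all promoters. TATAAA stood in 39 of the 58 windows, against 10.7%. In 11 places an H2A and an H2B gene start 194 to 248 bases apart, so their windows are largely the same letters. A site there may be counted for both genes, so the H2A and H2B counts are not independent. Of the genes with a tested probe 12 of 26 windows held the octamer, and of the others 14 of 32. A match is a description of the letters and not of a bound site.

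The windows of 4 of the 6 genes that measured at least 2-fold higher are shown, since they cover 3 classes, with the 3 elements in capitals. The other 2, the near-identical windows of H2AC18 and H2AC19, hold no octamer but both other elements. The first 3 shown hold an octamer, a TATAAA and several CCAAT letters, and the H4C8 window holds none of these letters. The H2AC20 window (chr1:149886668-149886917, plus strand) shares 235 bases with that of H2BC21 on the other strand. The others are H2AC6 (chr6:26123922-26124171, plus strand), H2BC12 (chr6:27146859-27147108, minus strand) and H4C8 (chr6:26285535-26285784, minus strand).
H2AC20: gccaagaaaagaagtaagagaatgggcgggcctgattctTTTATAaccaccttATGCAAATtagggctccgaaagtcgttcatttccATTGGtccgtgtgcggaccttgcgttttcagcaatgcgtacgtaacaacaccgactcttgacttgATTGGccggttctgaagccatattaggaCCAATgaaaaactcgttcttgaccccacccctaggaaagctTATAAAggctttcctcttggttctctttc
H2AC6: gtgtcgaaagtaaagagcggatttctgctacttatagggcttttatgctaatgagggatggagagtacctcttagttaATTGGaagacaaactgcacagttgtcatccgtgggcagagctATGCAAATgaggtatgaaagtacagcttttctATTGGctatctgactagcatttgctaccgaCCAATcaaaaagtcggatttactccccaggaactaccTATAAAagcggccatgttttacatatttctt
H2BC12: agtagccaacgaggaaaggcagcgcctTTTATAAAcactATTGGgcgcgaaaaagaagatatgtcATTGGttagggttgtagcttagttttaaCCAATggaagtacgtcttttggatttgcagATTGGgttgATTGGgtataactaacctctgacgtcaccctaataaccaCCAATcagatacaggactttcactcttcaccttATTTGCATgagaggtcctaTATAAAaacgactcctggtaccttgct
H4C8: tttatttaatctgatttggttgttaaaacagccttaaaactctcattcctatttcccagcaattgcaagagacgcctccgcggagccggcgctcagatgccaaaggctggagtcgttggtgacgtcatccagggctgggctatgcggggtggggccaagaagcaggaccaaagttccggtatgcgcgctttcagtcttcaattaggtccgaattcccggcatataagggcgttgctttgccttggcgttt

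H2A genes, whose proteins form dimers with H2B in the nucleosome, held the 3 largest differences of the 27 genes. Of 17 genes 9 were tested, 8 higher and 1 lower with a median of 0.40, and 4 were at least 2-fold higher. That median is the value of H2AC21, which passed the detection filter through the mH2A1.2_KO arrays alone. H2AC20, the gene formerly called HIST2H2AC in the chromosome 1 cluster, measured 11.59 and 11.12 in mH2A1.2_KO and 10.10 and 9.87 in wild type. Both mH2A1.2_KO arrays were above both wild type arrays, by 1.37 ± 0.21 (SE, n = 2 arrays per group) or 2.58-fold, with a limma adjusted p of 0.263. The 2 arrays that both tables place alike differed by 1.02, and the difference was 1.13 to 1.61 when 1 array was left out.

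H2AC18 and H2AC19 are duplicate genes of the same cluster whose promoter windows share an unbroken run of 249 of 250 bases, so their probes may read both and are not independent. H2AC19 measured 12.27 and 11.49 in mH2A1.2_KO and 10.74 and 10.31 in wild type, a difference of 1.35 ± 0.29 or 2.56-fold. The 2 probes of H2AC18 differed by 1.21 ± 0.25 and 1.59 ± 0.34. The brighter one measured 11.87 and 11.26 in mH2A1.2_KO against 10.51 and 10.20 in wild type. The groups did not overlap on any of these 3 probes, and between the arrays both tables place alike the difference was 0.75 for H2AC19 and 0.75 for the brighter H2AC18 probe.

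H2AC6, a chromosome 6 gene known to make polyadenylated transcripts too, measured 10.61 and 9.63 in mH2A1.2_KO and 9.20 and 8.42 in wild type. Its groups did not overlap and differed by 1.31 ± 0.39 or 2.48-fold (limma adjusted p = 0.495). Replicate 1 was higher than replicate 2 by 0.98 in mH2A1.2_KO and by 0.79 in wild type, and the 2 arrays both tables place alike differed by 0.43. The difference was 0.82 with mH2A1.2_KO replicate 1 left out, and with mH2A1.2_KO replicate 2 left out it was 1.80.

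The remaining H2A genes differed less. H2AC11 (0.28 ± 0.19) and H2AC17 (0.27 ± 0.16) had groups that did not overlap. H2AC11 measured 7.59 and 7.20 in mH2A1.2_KO and 7.16 and 7.07 in wild type, H2AC17 7.30 and 7.15 in mH2A1.2_KO and 6.87 and 7.03 in wild type. H2AC25, in a separate small cluster on chromosome 1, differed by 0.34 ± 0.23 with groups that overlapped. H2AC8 was the 1 lower gene, at -0.04 ± 0.34, with 7.62 and 6.89 in mH2A1.2_KO and 7.69 and 6.90 in wild type, so the arrays numbered 1 were high in both groups. H2AC21 was not above background on either wild type array. It measured 6.85 and 6.57 in mH2A1.2_KO and 6.44 and 6.18 in wild type. The difference had a limma adjusted p of 0.723 and an estimated bound of about 1.22-fold higher. That bound was set on each wild type array against the lowest detected signal or the probe's own value, whichever was higher. Such a bound, here and below, makes no allowance for the spread of the arrays, so it is not a guaranteed least change. When 1 array was left out, H2AC19 ran from 0.96 to 1.75, H2AC18 from 0.91 to 1.52, H2AC11 from 0.08 to 0.48, H2AC25 from 0.09 to 0.60 and H2AC21 from 0.26 to 0.54.

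Most H2B genes also measured higher in mH2A1.2_KO. Of 18 genes 8 were tested, 7 higher and 1 lower, with a median of 0.59. H2BC6 passed the detection filter through the mH2A1.2_KO arrays alone, and H2BC18, the lower one, through the wild type arrays alone. H2BC12, one of the genes known to make polyadenylated transcripts, measured 13.83 and 13.49 in mH2A1.2_KO and 12.60 and 12.72 in wild type. It was higher by 1.0 ± 0.18 or 2.0-fold (limma adjusted p = 0.308), and its second probe, with 12.39 and 11.70 in mH2A1.2_KO and 10.62 and 10.83 in wild type, by 1.32 ± 0.26. Neither probe overlapped between the groups. Between the arrays both tables place alike the difference of the brighter probe was 0.89, and it ran from 0.83 to 1.17 when 1 array was left out.

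H2BC4 measured 7.78 and 7.49 in mH2A1.2_KO and 7.03 and 6.90 in wild type, a difference of 0.66 ± 0.18. H2BC11 measured 8.64 and 7.89 in mH2A1.2_KO and 7.51 and 7.71 in wild type, a difference of 0.66 ± 0.27. In both genes the groups did not overlap, and when 1 array was left out H2BC4 ran from 0.52 to 0.81 and H2BC11 from 0.29 to 1.03. H2BC6 gave 7.10 and 6.96 in mH2A1.2_KO, with 6.50 and 6.39 in wild type, where it was not above background. Its difference had a limma adjusted p of 0.463 and an estimated bound of about 1.5-fold higher. H2BC18, the 1 H2B gene that measured lower, was not above background in mH2A1.2_KO (6.36 and 6.39, with 6.62 and 6.80 in wild type). Its difference had a limma adjusted p of 0.73 and an estimated bound of about 1.21-fold lower in mH2A1.2_KO.

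For the other H2B genes the groups overlapped. H2BC5 is read by 3 probes. The 2 annotated to one transcript measured 0.59 ± 0.31 and 0.56 ± 0.34 higher, the brighter with 10.12 and 9.71 in mH2A1.2_KO and 9.76 and 8.89 in wild type, and the probe annotated to the other transcript was not detected on any array. The brighter probe ran from 0.15 to 1.02 when 1 array was left out. H2BC21 measured 9.68 and 9.15 in mH2A1.2_KO and 9.51 and 8.62 in wild type, a difference of 0.35 ± 0.33. Between the arrays both tables place alike it was 0.36 lower in mH2A1.2_KO, and the sign also turned without wild type replicate 2. H2BC15 differed by 0.03 ± 0.17. The 5 genes known to make polyadenylated transcripts, all of which were tested, measured 0.35 to 1.31 higher. Their median was 0.66, beside 0.59 for the 27 genes, which include them. All 5 were detected on all 4 arrays, and the 21 genes so detected also had a median of 0.66.

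H3 genes, whose proteins form the core tetramer with H4, differed by less than 2-fold. Of 13 genes 5 were tested, all higher, with a median of 0.49. H3C8, whose value is that median, and H3C13 passed the detection filter through the mH2A1.2_KO arrays alone, which favours a higher value there. H3C10 measured 8.45 and 7.71 in mH2A1.2_KO and 7.69 and 7.09 in wild type, a difference of 0.69 ± 0.31 whose groups were separated by 0.02. H3C7 measured 8.09 and 7.70 in mH2A1.2_KO and 7.40 and 7.02 in wild type, a difference of 0.68 ± 0.22. Both had replicate 1 above replicate 2 in each group. H3C2 differed by 0.34 ± 0.25 with groups that overlapped. H3C8 gave 7.13 and 6.55 in mH2A1.2_KO and 6.41 and 6.29 in wild type, where it was not above background. Its difference had a limma adjusted p of 0.719 and an estimated bound of about 1.35-fold higher. The 3 probes of H3C13 disagreed. The tested one, detected on the mH2A1.2_KO arrays alone, gave 7.06 and 6.90 in mH2A1.2_KO and 6.64 and 6.64 in wild type, a difference of 0.34 ± 0.16 (limma adjusted p = 0.723). Another, detected on wild type replicate 2 alone and so not tested, gave 6.56 and 6.47 in mH2A1.2_KO and 6.55 and 6.71 in wild type, and the last was detected on no array. When 1 array was left out, H3C10 ran from 0.32 to 1.06, H3C7 from 0.48 to 0.88, H3C8 from 0.20 to 0.78 and H3C2 from 0.08 to 0.60.

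H4 genes ranged from -0.38 to 1.25. Of 15 genes 5 were tested, 4 higher and 1 lower with a median of 0.80. H4C8 measured 9.41 and 8.78 in mH2A1.2_KO and 7.66 and 8.03 in wild type. Its groups did not overlap and it was 1.25 ± 0.26 or 2.38-fold higher (limma adjusted p = 0.34), with 1.12 between the arrays both tables place alike and 0.93 to 1.57 when 1 array was left out. H4C14 and H4C15 are duplicates on chromosome 1 with identical windows of 250 bases, so their probes may read both. H4C14 gave 9.89 and 9.14 in mH2A1.2_KO and 8.96 and 8.47 in wild type, 0.80 ± 0.30 higher. H4C15 gave 8.90 and 8.36 in mH2A1.2_KO and 7.80 and 7.73 in wild type, 0.86 ± 0.22 higher. Neither overlapped between groups, nor did H4C12 (0.37 ± 0.20), which gave 7.69 and 7.37 in mH2A1.2_KO and 7.0 and 7.30 in wild type. When 1 array was left out, H4C14 ran from 0.42 to 1.18, H4C15 from 0.59 to 1.13 and H4C12 from 0.21 to 0.53.

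H4C3 differed from the other H4 genes in sign. It measured 12.81 and 13.45 in mH2A1.2_KO and 13.59 and 13.42 in wild type, a difference of -0.38 ± 0.24 (limma adjusted p = 0.856). Only mH2A1.2_KO replicate 1 stood below the other 3 arrays, and the groups overlapped. With that array left out the difference was -0.06, and with mH2A1.2_KO replicate 2 left out it was -0.70.

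**Figure D3:**
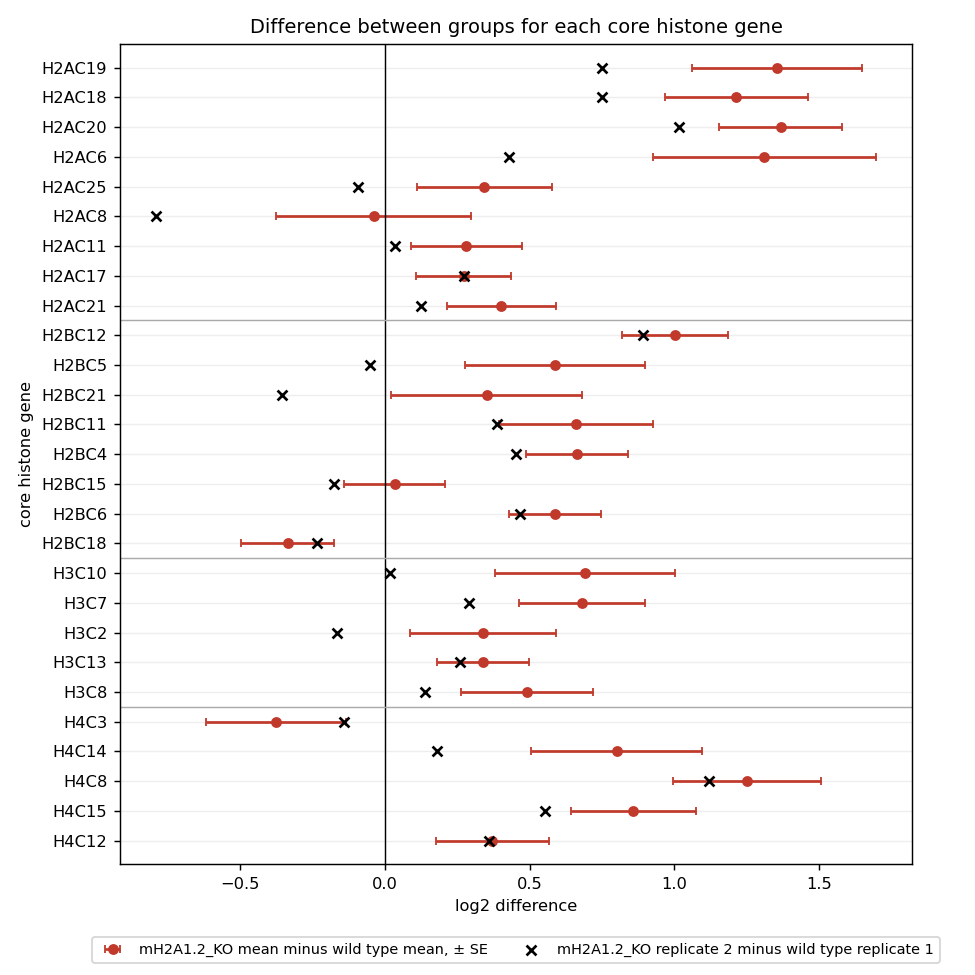
Log2 difference (horizontal axis) of each of 27 core histone genes. Red points with bars are the mH2A1.2_KO mean minus the wild type mean ± SE (n = 2 arrays per group), and black crosses are mH2A1.2_KO replicate 2 minus wild type replicate 1. Crosses lie above 0 for 19 genes, with H4C8 at 1.12, H2AC20 at 1.02 and H2BC12 at 0.89.

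The members were compared by position and by neighbour. Of 11 genes in the larger chromosome 1 cluster 9 were tested, with a median difference of 0.80, and of 49 genes in the chromosome 6 cluster 17 were tested, with a median of 0.59. The 9 include the duplicates H2AC18 with H2AC19 and H4C14 with H4C15, whose probes may read both. Their values are not independent and raise the chromosome 1 median, so the order of the 2 clusters was not settled. The chromosome 6 median is the value of H2BC6, which passed the detection filter through the mH2A1.2_KO arrays alone. H3C8 on chromosome 6 and H2AC21 and H3C13 on chromosome 1 passed in that way too, and H2BC18 on chromosome 1 through the wild type arrays alone. H4C16, the 1 gene on chromosome 12, was not detected. In 12 places, 2 member genes started within 1000 bases of each other and ran apart, 11 of them H2A with H2B, and both genes were tested in 3. H2AC20 measured 1.37 and its partner H2BC21 0.35, which start 236 bases apart. H2AC6 measured 1.31 and its partner H2BC4 0.66, and H2AC11 measured 0.28 and its partner H2BC11 0.66. In 5 further pairs 1 gene was tested and in 4 neither was.

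The 42 probes that were not tested lay near or below background, between 5.67 and 6.71 on the log2 scale. Of these 39 were detected on no array and 3 on 1 array, and their differences ran from -0.31 to 0.30 with a median of 0.06. For 36 genes no probe was tested, among them H2AC1 and H2BC1, which are known for expression in testis. The number of the 72 member probes detected was 31 and 29 on the mH2A1.2_KO arrays and 26 and 26 on the wild type arrays. Of all probes with values, 37.3% and 37.3% were detected on the mH2A1.2_KO arrays and 40.2% and 36.8% on the wild type arrays.

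Genes that make and process histone messages mostly measured lower. Of 26 such genes 22 were tested, 6 higher and 16 lower with a median of -0.11, and 0 passed the test (0% of all detected probes did), with an unadjusted p under 0.05 for 2, both lower, where 3.37% of features had one in that direction. The 3 largest differences were those of CCNE1, cyclin E1, TUT4, which adds uridines to RNA ends, and ERI1, an exonuclease that trims the histone stem-loop. CCNE1 measured 8.52 and 8.36 in mH2A1.2_KO and 9.15 and 9.06 in wild type, a difference of -0.66 ± 0.16 (limma adjusted p = 0.421). TUT4 differed by -0.44 ± 0.17 and ERI1 by -0.39 ± 0.19, and neither overlapped between the groups. SLBP, the stem-loop binding protein, differed by -0.12 ± 0.17, and NPAT, the histone gene coactivator, by -0.24 ± 0.17.

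Histone chaperones, which carry new histones to DNA, were mixed. Of 15 genes 14 were tested, 6 higher and 8 lower with a median of -0.02, and 0 passed the test, with 1 at an unadjusted p under 0.05 and higher, where 4.44% of features were. HAT1, which acetylates new H4, measured 0.50 ± 0.20, RBBP4 -0.40 ± 0.26 and ASF1B, a chaperone of H3 and H4, 0.24 ± 0.16. HAT1 and ASF1B were higher on both mH2A1.2_KO arrays, and RBBP4 overlapped.

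Other S phase genes mostly measured lower too. Of 37 genes 34 were tested, 6 higher and 28 lower with a median of -0.18, and 0 passed the test, with an unadjusted p under 0.05 for 4, all lower, where 3.37% of features had one in that direction. RRM2, the small subunit of ribonucleotide reductase, gave 7.69 and 8.12 in mH2A1.2_KO and 8.43 and 9.47 in wild type, a difference of -1.05 ± 0.35. MCM10, a replication initiation factor, differed by -0.67 ± 0.23 and RFC4, a clamp loader subunit, by -0.46 ± 0.15. The arrays did not overlap for 8 genes, all lower, where 18.7% of features were.

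The core histone genes and the S phase genes also differed between the arrays numbered 1 and those numbered 2, in opposite directions. The titles of the arrays numbered 1 end in E and F and those of the arrays numbered 2 in G and H, and the labels do not say that these letters or numbers tie samples together. Of 34 S phase genes 29 had replicate 2 above replicate 1 in both groups, where 35.4% of features did. So did 12 of 14 histone chaperones and 10 of 22 genes that make and process histone messages. Of 27 core histone genes 19 had replicate 1 above replicate 2 in both groups, where 33.9% of features did. Averaged over the groups, replicate 1 minus replicate 2 had a median of 0.31 for the core histone genes, with 24 above 0, and of -0.37 for the S phase genes, with 1 above 0. Between mH2A1.2_KO replicate 2 and wild type replicate 1 the S phase median was 0.14, against -0.18 over all arrays, while the core histone median was 0.26. The part of this pattern in the difference between groups was not tested.

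**Figure D4:**
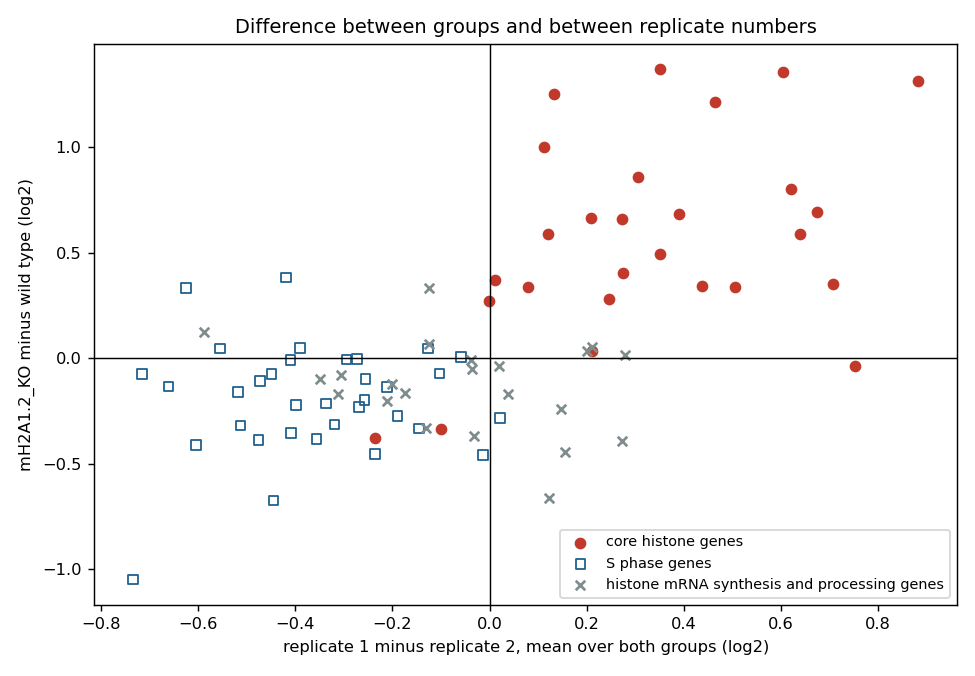
Log2 difference between groups, mH2A1.2_KO minus wild type (vertical axis), against replicate 1 minus replicate 2 averaged over both groups (horizontal axis), 1 point per gene. Core histone genes (filled circles) lie mostly at upper right and S phase genes (open squares) mostly at lower left, while 22 genes of histone mRNA synthesis and processing (crosses) lie between -0.66 and 0.33 on the vertical axis, with 16 below 0.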

How the data were processed

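RNA of 4 samples was made into biotinylated cRNA and hybridised to Illumina arrays of 1 colour, per the labels' protocols, with GenomeStudio as the software that the submitters' processing notes list. The authors deposited raw intensity for 47230 probes with a detection p-value for each on every array, and normalized log2 values for 43957 rows, of which 64 are blank. The sources used here do not give their normalization method. The normalized values were quantile normalized across the 4 arrays. Platform annotation named 29471 probes, and updating symbols by gene ID changed 0. The 16950 probes detected (p-value under 0.01) on 2 or more arrays were fitted with limma 3.58.1 in R 4.3.3 (residual degrees of freedom 2, prior 4.26). P-values were adjusted over all of these by Benjamini-Hochberg, with a threshold of 0.05. Differences are mH2A1.2_KO minus wild type. A gene was read by its brightest tested probe, for counts over 13786 features. Every histone gene with a tested probe is named, as are the 3 largest differences of each other list, and SLBP and NPAT for their role, chosen after their values were seen. The members and lists were chosen with earlier results of these data known. The number of arrays limits the precision. All titles share 1 chip number, so no chip block was possible. Alternatives were the deposited values unchanged, neqc, raw log2 signals, other detection filters, 1 feature a gene, an intensity trend, a replicate block, each array left out, and the raw header's grouping. Proteins were not analysed here.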

Additional observations from a re-analysis of the deposited data

How the results depend on the processing

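Of the 27 tested genes, 27 kept their sign with the deposited values, 26 with neqc and 26 with raw log2 signals. The exception was H2AC8, at 0.035 by neqc and 0.0051 from raw log2 signals. The other filters, 1 feature a gene, the trend and the block use the same values and groups. Each gene's difference is therefore the same there by design, and its sign could not turn. The filter for all 4 arrays kept 21 of the genes. With no detection filter 48 of 63 genes were above 0 and 15 below, the median was 0.12, and 5 of all probes passed the test. When 1 array was left out, 22 to 25 genes were above 0, 2 to 5 below, 19 to 24 wholly above wild type and 5 to 16 at an unadjusted p under 0.05, the median ran from 0.29 to 0.78, and 0 to 3 genes and 0 to 211 of all probes passed the test. That count at an unadjusted p under 0.05 covers higher genes only. With 3 arrays, groups fail to overlap by chance more often than with 4. The shares of all features given for 4 arrays therefore do not apply to the counts wholly above wild type. The rise of these counts to 24 cannot be read as a clearer difference. Over the same fits H2AC8 ran from -0.43 to 0.35, H2BC15 from -0.087 to 0.15 and H2BC21 from -0.093 to 0.79. Between the 2 arrays both tables place alike 8 genes were below 0 and the median was 0.26, where H2AC25 (-0.094), H2BC5 (-0.051), H2BC15 (-0.18), H2BC21 (-0.36) and H3C2 (-0.17) turned. By the raw table's header 3 genes were above 0 and 24 below, with a median of -0.31. Of the higher genes 0 were wholly above and 0 had an unadjusted p under 0.05. Lower genes were not counted in either way, and H2AC8, H2BC21 and H3C2 were lower with such a p. The differences that turned were H2AC11 -0.25, H2AC18 -0.46, H2AC19 -0.60, H2AC20 -0.35, H2AC21 -0.28, H2AC25 -0.44, H2AC6 -0.88, H2BC11 -0.27, H2BC12 -0.11, H2BC15 -0.21, H2BC18 0.10, H2BC21 -0.71, H2BC4 -0.21, H2BC5 -0.64, H2BC6 -0.12, H3C10 -0.67, H3C13 -0.078, H3C2 -0.51, H3C7 -0.39, H3C8 -0.35, H4C12 -0.010, H4C14 -0.62, H4C15 -0.31, H4C3 0.24, H4C8 -0.13. This grouping sets replicate 1 arrays against replicate 2 arrays. With the replicate number as a block 12 histone genes and 647 of all probes passed the test. An unadjusted p under 0.05 was then given to 21 higher histone genes, against 12 without the block. In either direction 2905 of all probes had one, against 1282 without it. Lower histone genes were not counted there, and H2BC18 was one with such a p. Replicate differences correlated at 0.567 across probes between the groups, and the numbers, given in sample order, also follow the last letters of the titles, yet no label says that they pair the samples. The cause of these shifts was not tested. Signals near background limit the dim genes.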
